A study of Mus musculus with 13 samples.

Results

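The subunits of the oxidative phosphorylation system were described by their RNA levels in purified mouse glomeruli, the filtering units of the kidney. Members were the genes whose symbols begin with Ndufa, Ndufb, Ndufc, Ndufs, Ndufv, Uqcr, Cox4 to Cox8, Atp5, mt-Nd, mt-Co, mt-Cyt or mt-Atp, together with Sdha, Sdhb, Sdhc and Sdhd, leaving out Ndufa4l2 and names containing -ps. This rule found 104 of the 46958 genes in the table, and 5 genes with those beginnings were left out by it. Of the members, 91 are nuclear and 13 are encoded by the mitochondrial genome. The nuclear members comprise 36 subunits of complex I, 7 complex I assembly factors whose symbols begin with Ndufaf, 4 subunits of complex II, 8 of complex III, 19 of complex IV and 17 genes with ATP synthase symbols. The symbols are not a perfect guide to function: Ndufa4 is today counted as a complex IV subunit, and Atp5sl encodes a complex I assembly protein.

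The study compared 3 genotypes of mice aged 6 months on a mixed C57/BL6, 129/SV and BALB/c background: 4 libraries were kFRA (LCDD), 4 were DH-LMP2A and 5 were wild type (WT). LCDD is light chain deposition disease, where light chains from 1 antibody-producing clone build up along kidney membranes, and the series title names their toxicity to glomeruli as its subject. The labels do not describe DH-LMP2A further, and they give no sex. Glomeruli were isolated with magnetic beads, and each library pooled 3 mice except WT replicates 3, 4 and 5, which came from 1 mouse each. Total counts per library ran from 16687509 to 30587890. The sample titles hold a code of 6 digits, called the title code here, whose meaning is not stated. Its 4 values were numbered in ascending order: code 1 (replicate 1 of each genotype), code 2 (replicate 2 of LCDD and of DH-LMP2A), code 3 (replicate 3 of those genotypes and WT replicate 2) and code 4 (their replicate 4 and WT replicates 3 to 5). Ddx3y, a Y-linked gene, had at most 3 counts in 4 of the 5 WT libraries and at least 208 in every LCDD and DH-LMP2A library, so comparisons with WT also compare libraries of different sex composition. Ddx3y ran from 208 to 2214 counts in LCDD and from 435 to 2296 in DH-LMP2A. Xist, the other sex marker used here, ran from 9 to 25354 and from 1026 to 17549. The comparison of LCDD with DH-LMP2A may therefore not be balanced for sex either.

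As background, oxidative phosphorylation passes electrons from NADH (complex I) and succinate (complex II) through ubiquinone, complex III and cytochrome c to oxygen at complex IV, and ATP synthase uses the resulting proton gradient to make ATP. Most subunits are encoded in the nucleus and imported, while a small core of complexes I, III, IV and ATP synthase is encoded by mitochondrial DNA. Complex II is wholly nuclear. In the kidney, proximal tubule cells are dense in mitochondria, whereas podocytes, the epithelial cells of the glomerular filter, are described as leaning more on glycolysis. The glomerular libraries were read against markers of podocytes and of proximal tubules, since tubule fragments can accompany a bead preparation.

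Of the mitochondrially encoded genes, at least 4 could not be read at face value. Mouse chromosome 1 carries a recent copy of part of the mitochondrial genome that is annotated as a row of pseudogenes. The copy spans 7 annotated genes on the minus strand between chr1:24611535-24616197 (GRCm38). It is identical over its aligned bases to mt-Co2, mt-Atp6, mt-Co3, mt-Nd4l and the first part of mt-Nd4, differs from mt-Nd3 at 1 of 345 bases, and differs from the last part of mt-Co1 at 6 of 492 bases. The stretches below show where the resemblance to mt-Co1 begins, with the differing bases in capitals, and the identical first 60 bases of mt-Co2 and its copy. They were read from GENCODE M21 transcripts, 5′ to 3′ along each gene.
mt-Co1 (chrMT:6381-6440, plus strand): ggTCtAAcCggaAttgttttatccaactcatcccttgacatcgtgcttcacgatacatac
Gm29216 (chr1:24616138-24616197, minus strand): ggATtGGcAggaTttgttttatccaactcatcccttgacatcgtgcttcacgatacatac
mt-Co2 (chrMT:7013-7072, plus strand): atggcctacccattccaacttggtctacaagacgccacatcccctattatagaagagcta
Gm28661 (chr1:24615506-24615565, minus strand): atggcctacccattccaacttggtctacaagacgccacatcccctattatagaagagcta

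All 6 differing bases of the mt-Co1 copy lie within this first stretch, so a read of 75 bases that starts further along cannot be told apart between the gene and its copy. Shared stretches of 75 bases, the read length, covered 99.9% of mt-Co3, 99.5% of mt-Atp6, 99.5% of mt-Co2, 98.7% of mt-Nd4l, 97.8% of mt-Nd3, 61.5% of mt-Nd4 and 39.8% of mt-Co1. These shares count any other annotated gene. For mt-Co1, 586 of 1471 stretches were shared with 2 other genes, and 405 were shared with Gm29216. The nuclear members shared far less: of the 90 with an annotated transcript, 59 shared no such stretch with another gene, and the highest share was 35.8% in Atp5g2.

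Nearly all counts stood under the copy for 4 of these genes, and a part did for mt-Co1. Summed over the 13 libraries, mt-Co2, a copper-bearing subunit of cytochrome c oxidase, had 2870 counts and its copy Gm28661 had 1118731. Of their joint counts, 99.7% thus stood under the pseudogene. The copies held 99.8% of the joint counts of mt-Atp6 and Gm10925, 99.8% of those of mt-Co3 and Gm28437, and 97.8% of those of mt-Nd3 and Gm28438. For mt-Co1, the catalytic subunit of complex IV, Gm29216 held 34.3%, with a range over libraries of 32.3% to 36.6%. That copy spans only 492 bases, against 1545 for mt-Co1. Per kilobase, Gm29216 had 2784439 counts and mt-Co1 had 1697761 over its whole length. The counts of mt-Co1 may therefore not be its full level. Sequence identity alone did not fix the outcome, since mt-Nd4l and mt-Nd4 kept nearly all of their counts, with 0.417% and 0.253% under Gm10222 and Gm28439. How reads matching more than 1 place were assigned is not given in the sources used here, and reads of the gene and of an identical copy cannot be told apart. The low counts of mt-Co2, mt-Atp6, mt-Co3 and mt-Nd3 are therefore not levels of those transcripts.

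**Figure D1:**
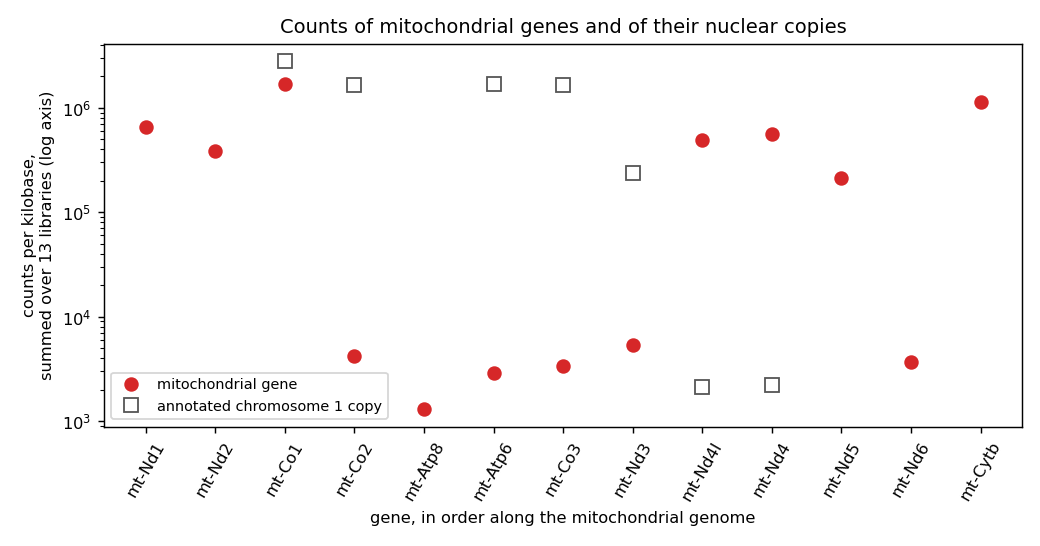
Counts per kilobase summed over the 13 libraries (vertical axis, log scale) for the 13 mitochondrially encoded members (horizontal axis, order along the mitochondrial genome), with filled circles for the gene and open squares for its annotated copy on chromosome 1. For mt-Co2, mt-Atp6, mt-Co3 and mt-Nd3 the squares lie far above the circles, for mt-Nd4l and mt-Nd4 far below them. For mt-Co1 the square lies a little above the circle.

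Per length, the mitochondrially encoded members covered a wide range. In counts per kilobase over all libraries, mt-Co1 had 1697761, mt-Cytb (the complex III core) 1138188, mt-Nd1 656952, mt-Nd4 558401, mt-Nd4l 495690, mt-Nd2 387390 and mt-Nd5 210377. By contrast mt-Co2 had 4196, beside 1642777 for its copy. Low counts without an annotated copy were seen in mt-Atp8 (1299 counts per kilobase) and in mt-Nd6 (3678), the member encoded on the opposite strand of the mitochondrial genome. mt-Atp8 (chrMT:7766-7969) begins between mt-Co2 and mt-Atp6 and shares part of its length with mt-Atp6. The copies of both neighbours follow each other on chromosome 1. Only annotated transcripts were searched, so a copy of mt-Atp8 between them was not looked for, and its counts may not be its level either. The mt-Nd6 gene overlaps the end of mt-Nd5 on the other strand. The library kit keeps strand, per the labels' protocols, but the strand setting of the counting is not given in the sources used here.

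Among nuclear members, levels per length were expressed as TPM, in which counts are divided by the deposited exon length and scaled to the same total in each library. The median of the tested members was 125 TPM for complex I subunits, 160 for complex II, 219 for complex III, 247 for complex IV, 147 for ATP synthase and 26.6 for the complex I assembly factors, which act during assembly and are not part of the finished complex. The highest nuclear level was 923 ± 134 TPM (SD, n = 13) for Cox8a, a small structural subunit of complex IV, followed by Cox6b1 at 723 and by Atp5a1, the alpha subunit of the ATP synthase catalytic head, at 673 ± 55.5 (SD, n = 13). Sdha, the flavoprotein that oxidises succinate, lay at 213 ± 20.3 TPM (SD, n = 13). All these values use the deposited length over all annotated exons, which may be far longer than the transcript made in glomeruli. Low values such as 16.9 for Ndufb2 and the order of the highest members both depend on it. Cox8a had 49029 counts over a length of 545 bases, and Atp5b had 247462 over 4237 bases, at 596 TPM.

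Complex IV has subunits with tissue isoforms, and the forms known as ubiquitous or liver type had the higher levels. Cox4i1 averaged 394 TPM against 16.2 for Cox4i2, the form described in lung and under low oxygen. Cox6a1 averaged 632 TPM against 0.74 for Cox6a2, a heart and muscle form. Cox6b1 averaged 723 TPM against 9.8 for the testis form Cox6b2. Cox7a2 averaged 393 TPM against 10.6 for the heart and muscle form Cox7a1, and Cox7a2l, which takes part in joining respiratory complexes into supercomplexes, averaged 361. Cox8b and Cox8c were at 0 counts in 10 of 13 libraries each, and no library exceeded 2 counts. The 3 genes for the membrane ring of ATP synthase encode the same mature protein, and Atp5g3 (179 TPM) and Atp5g2 (129) stood above Atp5g1 (36.6). Their summed counts were 39033, 20846 and 17752, and their deposited lengths were 2181, 1675 and 4912 bases. The gap between Atp5g2 and Atp5g1 thus rests mainly on the deposited length. A filter on low counts removed Cox6a2 (59 counts over all libraries), Cox7b2 (51), Cox8b (4) and Cox8c (3), which left 100 members to test, 87 nuclear and 13 mitochondrially encoded.

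**Figure D2:**
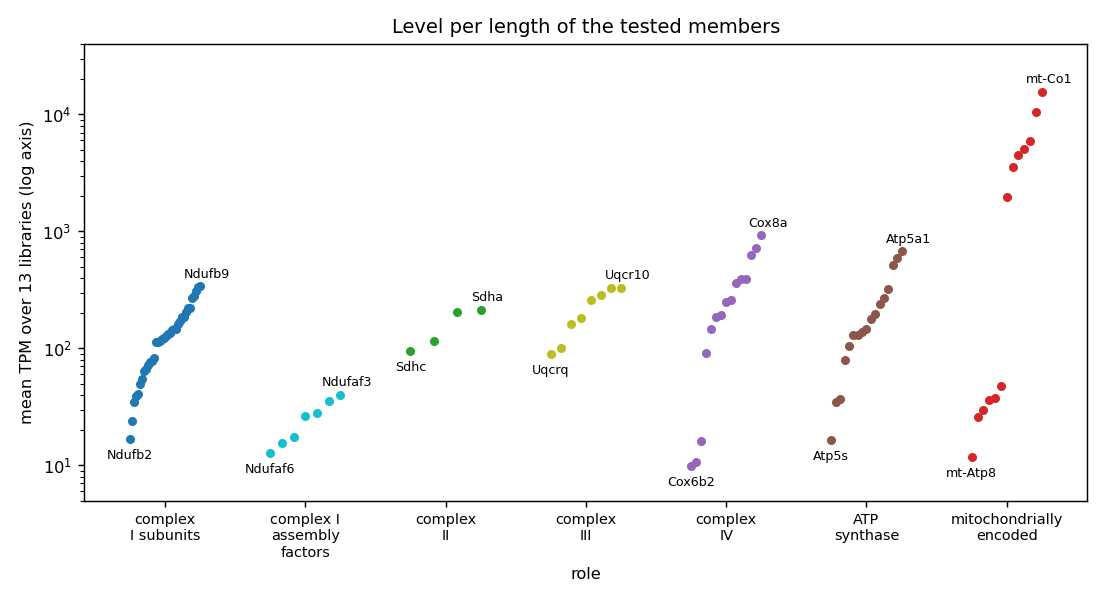
Mean level over the 13 libraries in TPM (vertical axis, log scale) of the 100 tested members, grouped by role (horizontal axis), 1 point per gene, with the highest and the lowest of each role named. The mitochondrially encoded genes fall into a high set led by mt-Co1 and a low set that holds mt-Atp8, mt-Nd6 and the 4 genes whose counts stood under their copies.

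Expression between genotypes was compared with edgeR's quasi-likelihood test over 16738 genes, with p-values adjusted by the Benjamini-Hochberg method and a gene called where the adjusted p was under 0.05. Between LCDD and DH-LMP2A, 0 of 87 nuclear and 0 of 13 mitochondrially encoded members were called, where 2.00% of all tested genes were. The median log2 fold change was -0.04 over the nuclear members and 0.04 over the mitochondrially encoded members, against -0.01 over all tested genes. Nuclear values ran from -0.42 (Cox7a1) to 0.20, with 57 of 87 below 0, and the median standard error (SE) was 0.14. At an unadjusted p under 0.05 there were 0 nuclear and 0 mitochondrially encoded members, and DESeq2 called 0 of either kind, where it called 4.85% of all genes.

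Against WT, LCDD had 0 of 87 nuclear and 0 of 13 mitochondrially encoded members called by edgeR, where 1.84% of all tested genes were called. The nuclear median log2 fold change was 0.03, with values from -0.37 to 0.25. The mitochondrially encoded median was -0.24, with 12 of 13 values below 0, but it was 0.45 without WT replicate 1 and 0.42 with a sex marker covariate. At an unadjusted p under 0.05 there were 0 nuclear members and 1 mitochondrially encoded member, mt-Nd6. DESeq2 called 0 of either kind, against 4.34% of all genes.

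DH-LMP2A against WT also had 0 of 87 nuclear and 0 of 13 mitochondrially encoded members called by edgeR, where 0.627% of all tested genes were called. The nuclear median was 0.04, with values from -0.29 (Cox7a2l) to 0.51 (Atp5sl). The mitochondrially encoded median was -0.27, and it was 0.38 without WT replicate 1 and 0.44 with a sex marker covariate. It was -0.27 with the title code as a block, -0.74 without WT replicates 3 to 5 and -1.15 with a proximal tubule marker covariate. With that last covariate 10 of 13 had an unadjusted edgeR p under 0.05 and 1 was called, beside 2.80% of all tested genes. When the block was added to it, 5 had such a p and 0 were called. Without block or covariate, 2 nuclear members, Atp5sl and Cox7a2l, and 1 mitochondrially encoded member, mt-Nd6, had an unadjusted p under 0.05. DESeq2 called 1 nuclear member, Atp5sl, and 0 mitochondrially encoded members, against 2.74% of all genes. All 3 comparisons share libraries, so their values are given side by side and not compared.

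The precision of these comparisons differed between the nuclear and the mitochondrially encoded members. The 95% interval of the log2 fold change lay within a 2-fold change in either direction for 86 of 87 nuclear members in each comparison, Cox7a1 being the exception, and within a 1.5-fold change for 80, 81 and 76 of them in the order given above. For the mitochondrially encoded members it lay within a 2-fold change for 1, 0 and 0 of 13. Their median SE was 0.64, 0.61 and 0.61, against 0.14, 0.13 and 0.13 for the nuclear members. The data thus bound nuclear differences between the groups of libraries closely and mitochondrially encoded ones only loosely. This fit held no term for sex, so the differences from WT may also include that of sex composition. With the title code as a block, LCDD against DH-LMP2A still had 0 members called, where 6.10% of all tested genes were called. The block gave 2 nuclear members with an unadjusted p under 0.05, Atp5sl and Ndufv1 (edgeR adjusted p of 0.194 and 0.183), and 12 of 13 mitochondrially encoded intervals lay within a 2-fold change.

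**Figure D3:**
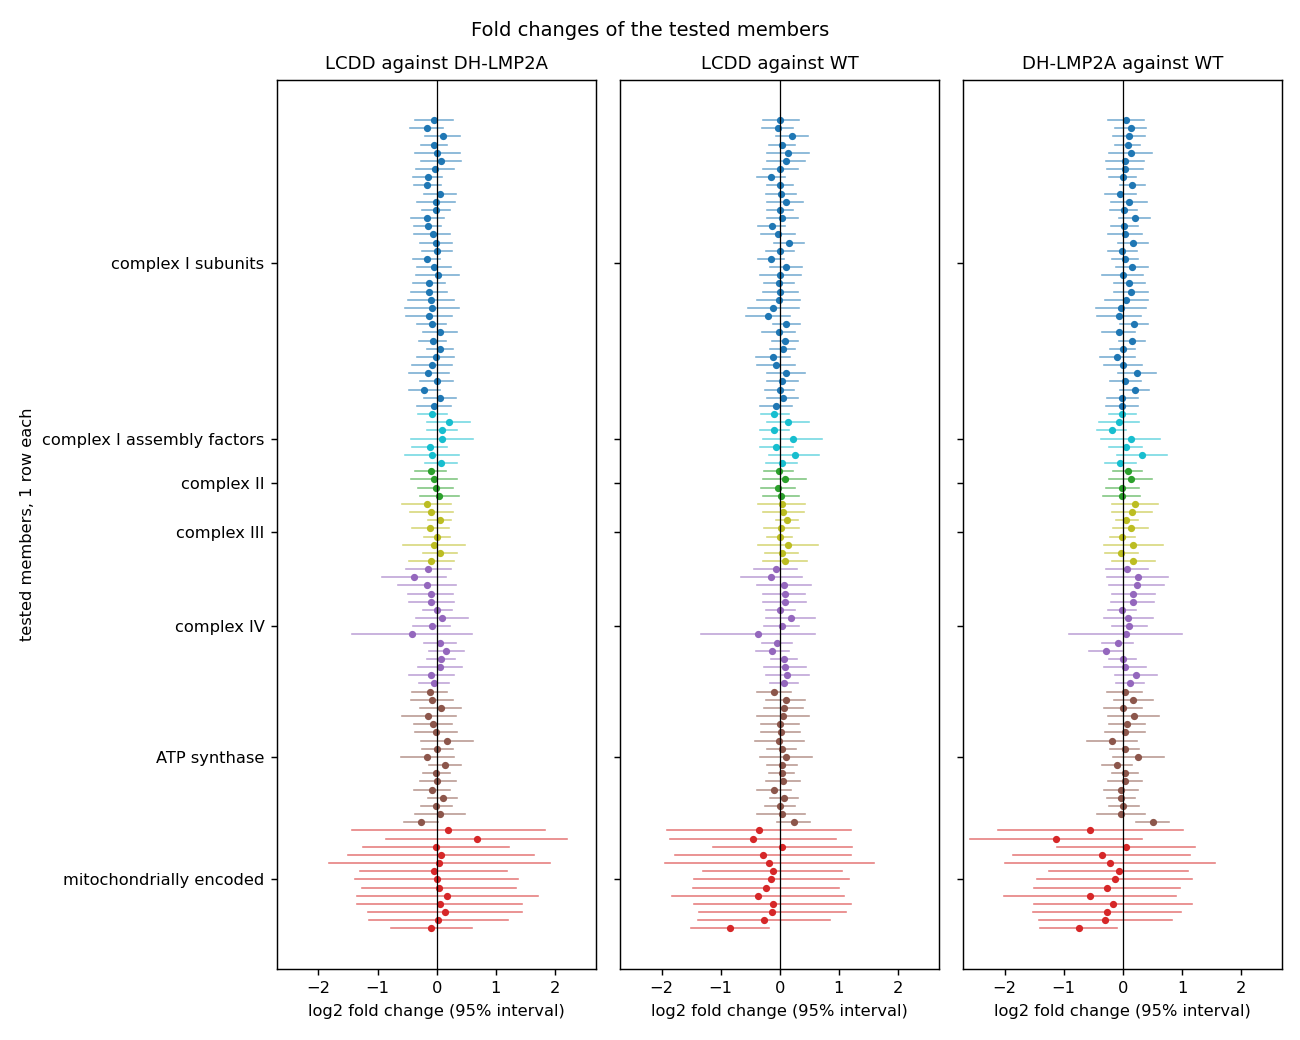
Log2 fold change with its 95% interval (horizontal axis) for each of the 100 tested members (1 row each, grouped and coloured by role) in the 3 comparisons, from edgeR. Nuclear points lie between -0.42 and 0.51 with short intervals, and the mitochondrially encoded rows at the bottom have wide intervals.

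The values of single members show the same contrast. Atp5b, the catalytic beta subunit of ATP synthase, averaged 802 CPM in LCDD (SD 88.2, n = 4), 849 in DH-LMP2A (SD 124, n = 4) and 748 in WT (SD 114, n = 5), where CPM are counts relative to the library size after scaling with TMM factors. Sdha had 233, 281, 250 and 250 CPM in LCDD replicates 1 to 4, 311, 287, 240 and 248 in DH-LMP2A, and 300, 240, 238, 247 and 257 in WT. These ranges overlapped, and the log2 fold change of LCDD against DH-LMP2A was -0.10 ± 0.12 (SE), with an edgeR adjusted p of 0.796. Cox4i1 had 197, 207, 163 and 168 CPM in LCDD, 280, 176, 181 and 172 in DH-LMP2A, and 221, 223, 161, 167 and 194 in WT. DH-LMP2A replicate 1 stood above every other library, and the remaining values overlapped. The LCDD against WT log2 fold change of Cox4i1 was -0.07 ± 0.17 (SE), with an edgeR adjusted p of 0.948.

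Atp5sl was the nuclear member furthest from 0 in a positive direction and the only one whose groups did not overlap in any comparison. It lies on chromosome 7 from 25619414 to 25625551, plus strand. It had 31.9, 30.7, 38.2 and 30.1 CPM in LCDD, 42.2, 34.4, 42.9 and 38.3 in DH-LMP2A, and 33.6, 27.1, 24.5, 23.3 and 30.3 in WT. Every DH-LMP2A library lay above every WT library, by little at the closest pair, and LCDD overlapped both. Within each of the 4 title codes LCDD lay below DH-LMP2A, by -0.40, -0.16, -0.17 and -0.35 on the log2 scale from code 1 to code 4. The log2 fold change of that comparison was -0.27 ± 0.11 (SE) with the code as a block, and its edgeR adjusted p was 0.194. Groups did not overlap for 1 of 87 nuclear members in DH-LMP2A against WT, where 4.97% of all tested genes did not overlap. In LCDD against DH-LMP2A no member had groups that did not overlap, where 7.62% of all tested genes had. The log2 fold change of DH-LMP2A against WT was 0.51 ± 0.13 (SE), with an edgeR adjusted p of 0.108, and was 0.24 ± 0.13 (SE) for LCDD against WT. By DESeq2 the first was called (adjusted p of 0.0225), and without WT replicate 1 edgeR called it as well (0.59, adjusted p of 0.0311). With the title code as a block it was the 1 nuclear member called, where 3.36% of all tested genes were called (edgeR adjusted p of 0.047). That call was lost when the block was joined by leaving out WT replicate 2 (0.41, adjusted p of 0.132), by the sex marker covariate (0.53, adjusted p of 0.52) or by the proximal tubule covariate (0.31, adjusted p of 0.292). The sex marker covariate without the block gave 0.40, with an adjusted p of 0.847. The same block gave 0 members in LCDD against WT, where 3.20% were called.

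Cox7a2l had the most negative nuclear value in DH-LMP2A against WT. It had 148, 103, 108 and 107 CPM in DH-LMP2A, 133, 158, 129, 139 and 152 in WT, and 138, 150, 111 and 122 in LCDD. DH-LMP2A replicate 1 lay within the WT range and the other 3 below it. The log2 fold change was -0.29 ± 0.13 (SE), with an edgeR adjusted p of 0.387. Cox7a1 had the widest spread of any nuclear member, from 0.552 CPM in LCDD replicate 4 to 2.81 in DH-LMP2A replicate 1, a ratio of 5.08, and its genotype ranges overlapped.

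The mt-Nd6 gene, a complex I core subunit, had 5.06, 5.04, 3.50 and 4.34 CPM in LCDD, 4.23, 4.56, 6.17 and 4.30 in DH-LMP2A, and 15.4, 5.81, 5.33, 6.22 and 7.50 in WT. WT replicate 1 stood far above the rest. Each LCDD library lay below each WT library, with DH-LMP2A overlapping WT. Groups did not overlap for 1 of 13 mitochondrially encoded members in LCDD against WT, where 4.59% of all tested genes did not overlap. The log2 fold change was -0.85 ± 0.30 (SE) for LCDD against WT and -0.75 ± 0.30 for DH-LMP2A against WT, with edgeR adjusted p-values of 0.229 and 0.333. Without WT replicate 1 they were -0.47 and -0.37. With the mean log2 CPM of proximal tubule markers as a covariate, both were called (-1.10, adjusted p of 0.0274, and -1.12, adjusted p of 0.0272, by edgeR), where 1.51% and 2.80% of all tested genes were called. Both calls were lost when the block was added to that covariate (adjusted p of 0.0637 and 0.118). With a sex marker covariate the values were -0.46 and -0.40 (edgeR adjusted p of 0.957 and 0.95). With the proximal tubule covariate 0 members were called in LCDD against DH-LMP2A, where 5.45% of all tested genes were. The gene had 1909 counts over all libraries.

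The other mitochondrially encoded members differed far more between libraries of the same genotype than between genotypes. In LCDD, mt-Co1 had 13753, 8418, 3290 and 6362 CPM in replicates 1 to 4. In DH-LMP2A it had 14009, 8124, 4438 and 5376, and in WT 17581, 2959, 6513, 4898 and 6637. Replicate 1 was the highest library of each genotype, and the genotype means of 7956, 7987 and 7718 lay close together. The log2 fold change of mt-Co1 was -0.01 ± 0.57 (SE) for LCDD against DH-LMP2A.

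The pattern was alike in mt-Cytb, with 5701, 4748, 1714 and 2751 CPM in LCDD, 6261, 4299, 2469 and 2427 in DH-LMP2A, and 9316, 1093, 3701, 2530 and 3664 in WT. mt-Nd1, a complex I core subunit, had 3390, 1931, 666 and 1186 CPM in LCDD, 3140, 2001, 987 and 1043 in DH-LMP2A, and 5000, 605, 1640, 1133 and 1521 in WT. The library with code 3 was the lowest of each genotype for mt-Nd1, and for mt-Cytb in LCDD and WT but not in DH-LMP2A, where codes 3 and 4 lay close together. mt-Nd2 ran from 384 to 3336 CPM, mt-Nd4 from 622 to 6217, mt-Nd4l from 112 to 1153 and mt-Nd5 from 386 to 3202, in each case from WT replicate 2 to WT replicate 1.

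**Figure D4:**
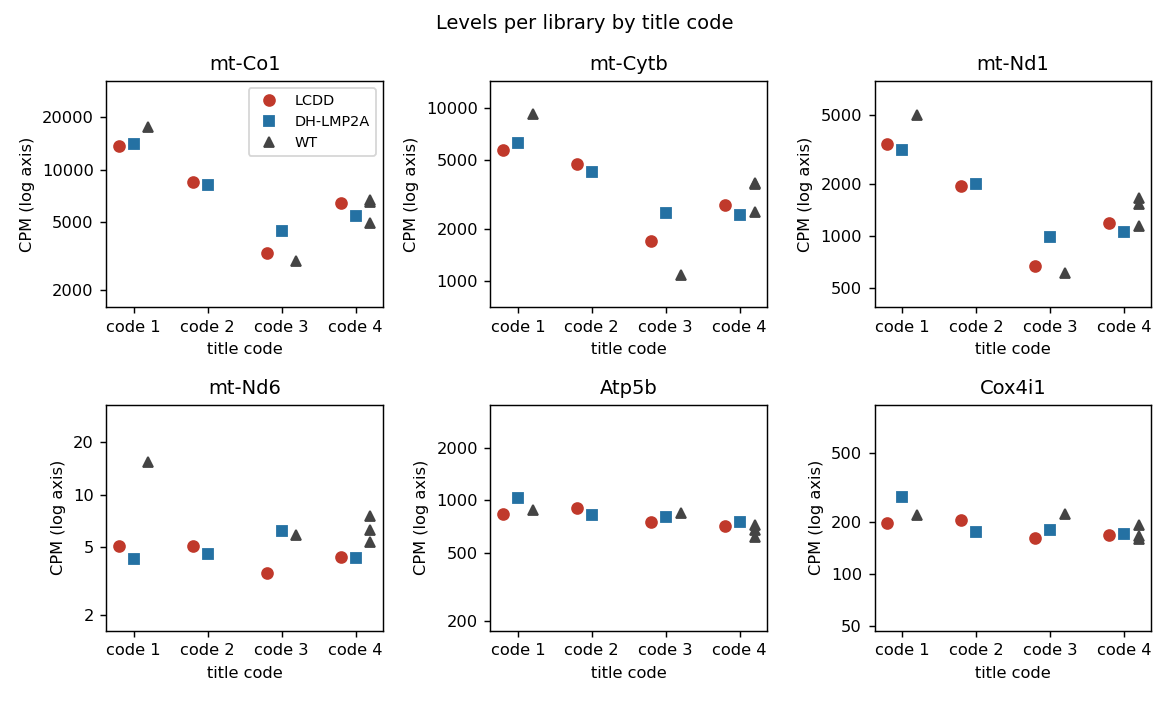
CPM per library (vertical axes, log scale, the same ratio of top to bottom in each panel) by title code (horizontal axes, numbered in ascending order) for mt-Co1, mt-Cytb, mt-Nd1, mt-Nd6, Atp5b and Cox4i1, with 1 point per library and the genotype shown by shape and colour. mt-Co1, mt-Cytb and mt-Nd1 are highest under code 1 in each genotype, while Atp5b and Cox4i1 cover a narrow range.

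The ratio of the highest to the lowest library had a median of 9.7 over the 13 mitochondrially encoded members (4.41 for mt-Nd6 to 23.3 for mt-Co3). Its median was 1.57 over the 87 nuclear members (1.24 to 5.08) and 2.22 over the 16381 tested genes with no library at 0. With the copies' counts added, the ratio was 5.38 for mt-Co3 and 6.98 for mt-Co2, and the median over the 13 was 8.29 (4.41 to 13, the highest being mt-Atp8 with its few counts). By role the nuclear medians were 1.53 for complex I subunits, 1.52 for the assembly factors, 1.49 for complex II, 1.70 for complex III, 1.71 for complex IV and 1.59 for ATP synthase. The nuclear median thus lay below that of the tested genes, and the mitochondrially encoded median above it. The genes were not matched for level, on which such a ratio also depends. WT replicate 1 was the highest library for all 13 mitochondrially encoded members, and the lowest was WT replicate 2 for 7, LCDD replicate 3 for 5 and DH-LMP2A replicate 3 for 1. Nuclear members peaked elsewhere: 49 of 87 were highest in DH-LMP2A replicate 1, and 41 were lowest in WT replicate 3.

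A test of the title code, with genotype in the model, was added after these values were seen. It called 12 of 13 mitochondrially encoded members, all but mt-Nd6 (adjusted p of 0.314), and 14 of 87 nuclear members, where 18.6% of all tested genes were called (edgeR F test with Benjamini-Hochberg adjustment). The nuclear count thus lay near that background. Against code 1 the median log2 difference of the mitochondrially encoded members was -0.86 for code 2, -2.30 for code 3 and -1.45 for code 4. The corresponding nuclear medians were -0.19, -0.13 and -0.25, and those of all tested genes -0.02, 0.01 and -0.00. Without the 3 libraries of code 1, the test called 0 mitochondrially encoded and 0 nuclear members and 1 gene of all, and 12 mitochondrially encoded and 16 nuclear members had an unadjusted p under 0.05, among 4803 genes of all.

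For code 3 against code 1, mt-Nd1 differed by -2.32 on the log2 scale (adjusted p of 0.00762) and mt-Co1 by -2.09 (adjusted p of 0.00825) in the edgeR fit. The few counts left on mt-Co3 and mt-Co2 differed by -3.38 and -2.98, but with the copies' counts added these genes differed by -2.09 and -2.07 (edgeR adjusted p of 0.00854 for both). The same 12 of 13 members, all but mt-Nd6, were called with the copies added, and the medians were -0.83, -2.09 and -1.44 for codes 2, 3 and 4. The called nuclear members were Ndufa10, Ndufab1, Ndufb5, Ndufb8, Ndufc1 and Ndufc2 of complex I, Sdhd of complex II, Uqcr10 and Uqcrfs1 of complex III, Cox5a of complex IV, and Atp5c1, Atp5d, Atp5f1 and Atp5g3 of ATP synthase. Of these, Cox5a had -0.75 and Atp5g3 -0.70 for code 4 against code 1 (edgeR adjusted p of 0.00929 and 0.00825). Code code 1 held the highest library of every genotype for 10 of 13 mitochondrially encoded and 19 of 87 nuclear members.

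**Figure D5:**
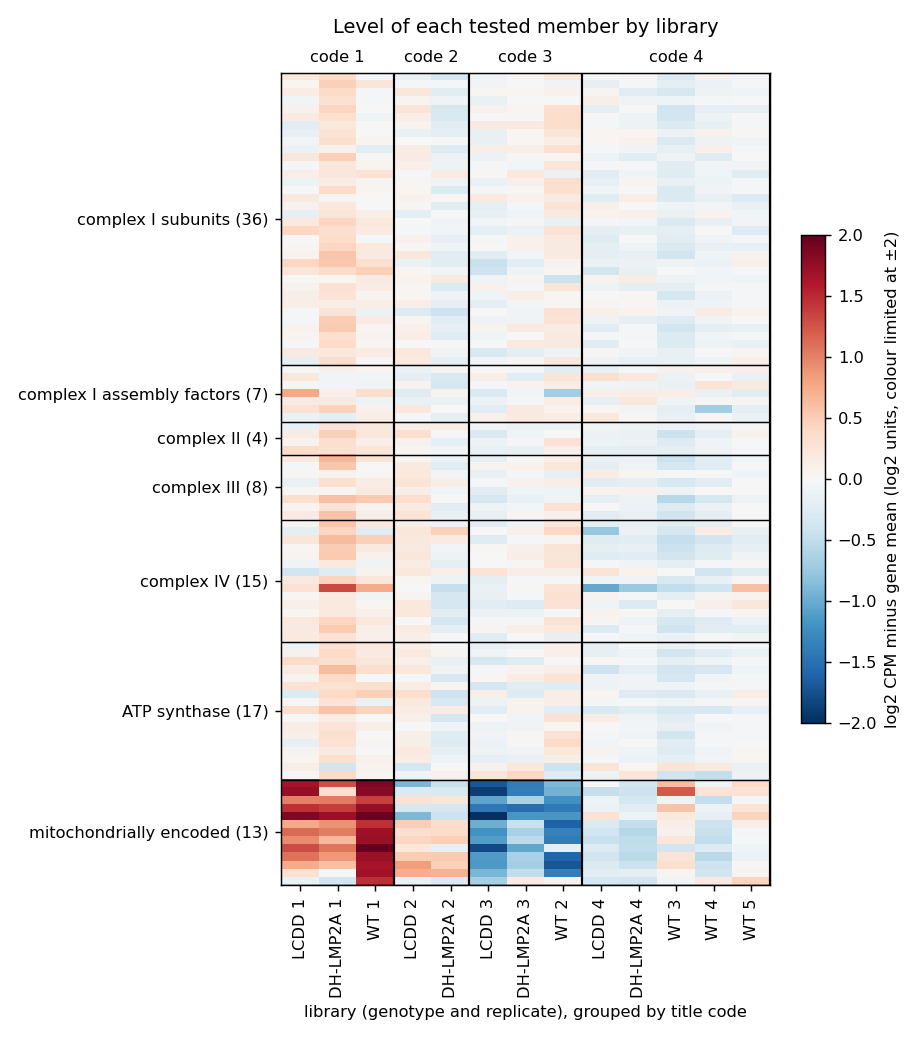
Log2 CPM of each tested member minus its mean over the 13 libraries (colour, limited at 2 in either direction), with members in rows grouped by role and libraries in columns grouped by title code. The 13 mitochondrially encoded rows are mostly high under code 1 and low under code 3, and the nuclear rows are paler, with DH-LMP2A replicate 1 the most coloured column.

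As a share of all counts, the mitochondrially encoded members took 3.01%, 2.15%, 0.767% and 1.37% in LCDD, 3.07%, 2.16%, 1.09% and 1.22% in DH-LMP2A, and 4.64%, 0.599%, 1.61%, 1.14% and 1.58% in WT. The genotype means were 1.83% ± 0.973 (SD, n = 4), 1.89% ± 0.923 (SD, n = 4) and 1.91% ± 1.58 (SD, n = 5), which differ by less than the spread within each genotype. By title code in ascending order the means were 3.57%, 2.16%, 0.819% and 1.39%. With the counts of the copies added, the genotype means were 3.31%, 3.41% and 3.43%. The nuclear members together took 0.752% ± 0.0578 (SD, n = 4), 0.800% ± 0.118 (SD, n = 4) and 0.730% ± 0.0882 (SD, n = 5).

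The nuclear and mitochondrially encoded groups were set against each other within each library as the mean log2 CPM of the 13 minus that of the 87. This difference was 1.76, 0.80, -0.44 and 0.64 in LCDD, 1.26, 1.0, 0.01 and 0.47 in DH-LMP2A, and 2.37, -0.45, 1.24, 0.62 and 0.95 in WT. It was highest in replicate 1 of each genotype and lowest under code 3 in each, and the genotypes overlapped. With the copies' counts added, the genotype means moved from 0.69, 0.69 and 0.95 to 3.32, 3.31 and 3.44. No p is given for this difference, as its members were chosen.

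Markers of proximal tubules and of podocytes moved with the title code beside these values. The summed level of 16 proximal tubule markers was 2262 to 5045 CPM under code 1, 2651 to 4133 under code 2, 284 to 1760 under code 3 and 124 to 986 under code 4. The summed level of 10 podocyte markers was 7273 to 16548, 13345 to 21385, 31536 to 33780 and 25354 to 34545 CPM. None of the markers was at 0 in all libraries of a code. For the code, 13 of 16 proximal tubule and 10 of 10 podocyte markers were called, beside 18.6% of all tested genes. Of the other marker lists, 3 of 11 loop, distal tubule and collecting duct markers and 1 of 10 red and white cell markers were called. Mesangial markers had 0 of 9 called and endothelial markers 0 of 10. The order was not the same for every library: WT replicate 3 had 265 CPM of proximal tubule markers and a mitochondrially encoded share of 1.61%, and DH-LMP2A replicate 4 had 738 CPM and 1.22%. DH-LMP2A replicate 1, where most nuclear members were highest, had the highest proximal tubule sum, 5045 CPM. By genotype the proximal tubule sums were 705 to 2651 CPM in LCDD, 738 to 5045 in DH-LMP2A and 124 to 4593 in WT. In bulk RNA, fewer cells of a type and less RNA per cell cannot be told apart, and the part of these markers in the members' levels was not tested.

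Genes around the system were read from fixed lists. Of 41 tested assembly factors outside the rule, 27 genes of mitochondrial biogenesis and mitochondrial DNA expression, 21 of the citric acid cycle and pyruvate entry, 16 of glycolysis, 15 electron carriers and 79 mitochondrial ribosomal proteins, 0 were called by edgeR in any of the 3 comparisons. The median log2 fold changes of the mitochondrial ribosomal proteins were 0.03, 0.00 and 0.01. Ppargc1b, a coactivator of mitochondrial gene programmes, had the smallest adjusted p of these lists, with 0.96 ± 0.23 (SE) in DH-LMP2A against WT and an edgeR adjusted p of 0.0975. With the title code as a block, 2 glycolysis genes, Gapdh and Eno1, were called higher and 1 electron carrier gene, Gpd2, lower in LCDD than in DH-LMP2A, where 6.10% of all tested genes were called. In DH-LMP2A against WT the block gave 1 glycolysis gene, Pfkp, called lower, where 3.36% of all were. All 6 tested mitochondrial rRNA and tRNA genes were called for the title code, as were 3 of the 27 biogenesis genes and 8 of the 79 mitochondrial ribosomal proteins, beside 18.6% of all tested genes.

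The promoters of nuclear members were searched for 3 short motifs that regulators of respiratory genes are known to bind. These were the NRF1 core, which is the run of 10 capitals in the Atp5k and Cox6a1 windows below and reads the same on both strands, CCGGAAG, a core bound by ETS factors such as GABP, and AAGATGGC, a YY1 core, each sought on both strands. RefSeq promoters (GRCm38.p6, 250 bases before to 50 after the start) were matched for 73 of 91 nuclear members, which have 78 promoters. At least 1 of the motifs was in 38.5% of these, against 11.9% of 32851 promoters in the table. By motif the shares were 8.97% against 0.971% for NRF1, 21.8% against 8.86% for ETS and 11.5% against 2.75% for YY1. A match describes letters only, and no factor's binding was measured. The windows below show promoters that hold these motifs, in capitals, 5′ to 3′ along the gene.
Atp5k (chr5:108434400-108434459, minus strand): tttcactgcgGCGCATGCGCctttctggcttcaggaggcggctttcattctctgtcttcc
Cox6a1 (chr5:115348959-115349130, minus strand): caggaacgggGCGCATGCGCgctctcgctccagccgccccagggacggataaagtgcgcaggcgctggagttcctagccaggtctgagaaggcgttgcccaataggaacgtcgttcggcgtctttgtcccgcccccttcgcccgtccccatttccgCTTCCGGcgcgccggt
Atp5j (chr16:84834977-84835074, minus strand): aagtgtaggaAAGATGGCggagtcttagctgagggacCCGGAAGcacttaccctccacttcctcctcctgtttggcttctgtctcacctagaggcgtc

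Atp5k and Atp5j encode small membrane-bound and stalk subunits of ATP synthase. The ratio of the highest to the lowest library was 1.58 for Atp5k, 1.33 for Atp5j and 1.86 for Cox6a1. Cox6a1 had 143, 162, 139 and 117 CPM in LCDD, 199, 128, 151 and 118 in DH-LMP2A, and 146, 163, 107, 117 and 130 in WT. Its genotypes overlapped, with DH-LMP2A replicate 1 the highest library, and its log2 fold change of LCDD against DH-LMP2A was -0.09 ± 0.18 (SE), with an edgeR adjusted p of 0.886.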

How the data were processed

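Glomerular RNA from 13 libraries of 3 genotypes was sequenced as stranded mRNA libraries with paired reads of 75 bases, per the labels' protocols. The values are raw read counts per gene, deposited by the authors and made with featureCounts from Subread 1.5.0-p3 after STAR 2.4.0a, per the submitters' processing notes, which also name mm10 and GRCm38 and DESeq2. Options for strand and for reads matching several places are not given in the sources used here. The deposited table also gives exon coordinates and lengths.

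Members and gene lists were chosen with earlier results of these data known. filterByExpr (minimum count 10, by genotype) kept 16738 genes and dropped 30220. Counts were scaled with TMM and fitted in edgeR 4.0.16 (R 4.3.3) by quasi-likelihood with 1 coefficient per genotype, all 13 libraries together. The SE was obtained from the F statistic as the fold change (log2) over its root, and intervals are 95%. Log2 CPM used a prior count of 2. The edgeR steps were tested on simulated data. Replicates are separate samples per the labels. DESeq2 1.42.0, other scalings, covariates, left-out libraries and the title code as a block were alternatives. Same-code LCDD and DH-LMP2A libraries deviated together from their genotype means (r from 0.153 to 0.593 over 4 pairs, mean 0.421), so the code was taken to pair them. Over 12 pairs of different codes r ran from -0.599 to 0.524 (mean -0.139), so the ranges overlap. LCDD replicate 2 had 0.153 with its same-code library and 0.524 with DH-LMP2A replicate 1, so the pairing is weak for code 2. For WT pairs r fell to -0.165 and -0.159 at the lowest, so there the libraries share only a code. No molecular identifiers were used, so depth covers counting error only.

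The genes named are all mitochondrially encoded members, Sdha to Sdhd, members called in any comparison without or with the title code block, the 5 highest and 5 lowest fold changes per comparison, fixed isoform sets, and the highest and lowest level per length of each role. Atp5b, Ndufs1, the printed promoters and the members called for the title code were named after their values were seen. Sequences came from GENCODE M21 and RefSeq.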

Additional observations from a re-analysis of the deposited data

Results flagged for a closer look

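In 144 groups of 4 or 5 libraries, the highest or lowest library was tested for a gap to its nearest neighbour that was large for the range of its group (Dixon's test). It was flagged in 11 groups, where chance would flag about 7.2. The share of counts on mitochondrially encoded members was 4.64% in WT replicate 1, while the other WT libraries held 0.60% to 1.61%, and mt-Nd3 in that library was at 4.22 log2 CPM (others 1.77 to 2.06). WT replicate 1 also had 7.35 for Atp5g3 (others 6.60 to 6.76), and WT replicate 2 had 3.17 for the assembly factor Ndufaf2 (others 2.79 to 2.89).

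In DH-LMP2A, replicate 1 stood above the others with 8.13 log2 CPM for Cox4i1 (others 7.43 to 7.50), 7.21 for Cox7a2l (6.68 to 6.75) and 6.58 for Uqcr10 (5.78 to 5.91). In LCDD, replicate 4 had 5.54 for Ndufb4 (others 5.29 to 5.32), 5.69 for Ndufs7 (5.98 to 6.03) and 6.61 for Ndufv1 (6.81 to 6.83). Replicate 1 of LCDD had 1.41 for Cox6b2 (1.99 to 2.04).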

How the results depend on the processing

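Over 3388 refits of 44 named members, 8 passed the threshold where the main fit had not, and 550 uncalled values changed sign. Reversals of a called fold change numbered 0, but the main fit called no member, so it had no call to reverse. In DH-LMP2A against WT, 1 nuclear member, Atp5sl, was called with the title code as a replicate block (adjusted p of 0.047, also with the copies' counts added) and by DESeq2, and 0 to 1 with each replicate left out (1 without WT replicate 1). It was not called with the block plus the sex covariate, plus the proximal tubule covariate or without WT replicate 2. Without the lowest code and with the block, 3 of 87 were called (Atp5sl, Cox7a2l and Ndufs1, which is not among the 44), where 9.49% of all genes were. The block changed no other count of members called between genotypes. A proximal tubule covariate gave 1 mitochondrially encoded member, mt-Nd6, in each WT comparison, but 0 when the block was added. The mitochondrially encoded median, -0.24 and -0.27 against WT, was 0.42 and 0.44 with a sex marker covariate and 0.45 and 0.38 without WT replicate 1, with 0 members called. The mitochondrially encoded minus nuclear level (0.69, 0.69 and 0.95 for LCDD, DH-LMP2A and WT) was 2.55, 2.45 and 2.53 as medians over members and 3.32, 3.31 and 3.44 with the copies added; the share rose to 3.31% and 3.41% in LCDD and DH-LMP2A with the copies. For the title code, leaving out replicates gave 6 to 22 nuclear (22, or 25.3%, without DH-LMP2A replicate 2, beside 17.5% of all genes; 6, or 6.9%, without DH-LMP2A or WT replicate 1, beside 11.7% and 14.9%) and 11 to 12 mitochondrially encoded calls; without the lowest code both were 0. The causes were not tested. The lone WT library left under some codes was assumed to vary like the others, and the low counts of mt-Atp8 and mt-Nd6 limit their precision.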
